A study of Mus musculus with 24 samples.

Results

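Left ventricles of 6 male mice with a cardiac-specific knockout of EP4 and a low ejection fraction (KO low EF) were compared with those of 11 wild-type male mice (WT), each heart on 1 Illumina mouse array. The members were taken by their labels, the 6 knockout hearts titled low EF and all 11 wild-type hearts, and make up 17 of the 24 arrays of the series. The other 7 arrays come from knockout hearts labelled high EF, and serve here only to ask whether a gene also differs between the knockout groups. All mice are of a mixed genetic background. Neither the promoter behind the recombinase nor its presence in wild-type mice is given in the sources used here. Ejection fraction (EF), the share of blood that the left ventricle expels at each beat, was 24.8 ± 6.96% (SD, n = 6) in KO low EF and 79.5 ± 4.66% (SD, n = 11) in WT mice. Age was 27 to 33.5 weeks in the first and 27 to 33 weeks in the second group.

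EP4, encoded by Ptger4, is a receptor for prostaglandin E2 that signals through cyclic AMP. Dilated cardiomyopathy, the condition named by the series, is a widening of the ventricle with loss of contractile force. In failing ventricles, muscle cells are known to return to a fetal pattern of genes and to lose genes of fatty acid oxidation, while fibroblasts lay down matrix and macrophages enter or expand.

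Values are normalized intensities on a log2 scale, and differences are log2 KO low EF minus WT ± standard error. Median raw intensity ran from 116 to 141 over the 17 arrays. A probe was tested where it exceeded its array's median on at least 6 arrays, which left 24097 of 45281 probes. Adjusted p-values are those of limma with Benjamini-Hochberg adjustment over all of these probes (6 against 11 arrays), and a probe is called where its adjusted p is under 0.05. Normalized values end near 16, so differences of the brightest probes are compressed.

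On the first principal component, with 45.2% of the variance, KO low EF hearts scored 35.5 to 43.5 and WT hearts -32.5 to -14. WT replicate 1 stood apart on the second component, at 53.3 against -12.5 to 6.43 for the other 16 arrays. Atrial genes separated the wild-type hearts in another way. Myl7, the atrial regulatory myosin light chain, measured 5.93 to 6.58 in 7 WT hearts, 9.82 to 12.53 in WT replicates 8 to 11, and 6.42 to 6.96 in KO low EF hearts. Sln, the atrial calcium pump inhibitor sarcolipin, was bright in the same 4 hearts (9.28 to 12.67, against 5.97 to 6.84 in the other 7), and dim in all KO low EF hearts (6.55 to 6.79). Of the 12 atrial markers 11 were tested, and their summed linear intensity ran from 15480 to 84430 in WT and from 65217 to 69500 in KO low EF hearts, a sum to which Nppa contributes. These 4 wild-type arrays therefore go against the labelled tissue. Named genes that move furthest without them are given both ways. Some smaller shifts, such as that of Kcnk1 from -1.65 to -1.95, are not given below.

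**Figure D1:**
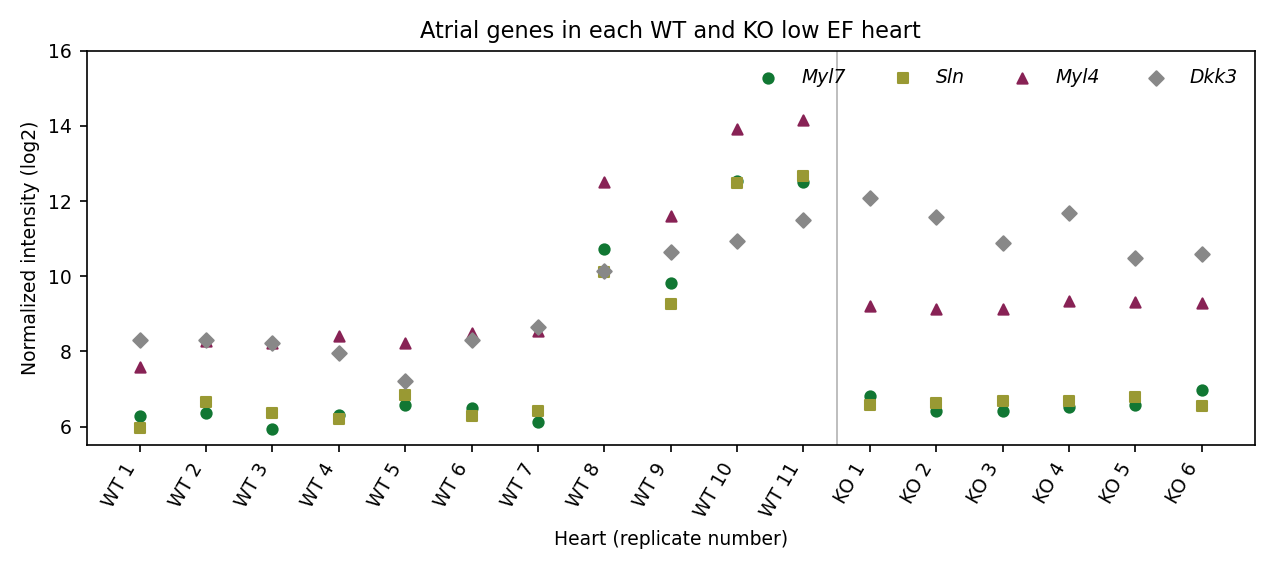
Normalized intensity (log2, vertical axis) of Myl7, Sln, Myl4 and Dkk3 in each of the 11 WT and 6 KO low EF hearts (horizontal axis). Myl7, Sln and Myl4 are brighter in WT replicates 8 to 11 than in the other WT and in all KO low EF hearts, whereas Dkk3 is bright in those 4 and in all KO low EF hearts.

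Ptger4, the targeted gene, measured 6.69 to 7.14 in WT hearts (median 6.87) and 6.63 to 6.96 in KO low EF hearts (median 6.86). The groups overlapped over most of their range, near the array median of 6.74, and the difference was -0.04 ± 0.07 (adjusted p = 0.742 by limma). Where the probe sits with respect to the deletion is unknown here. Which cells of the ventricle retain an intact gene is not given either, so this value does not check the labels.

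Over all probes, 8178 were called, or 33.9% of those tested. They divided into 3989 higher (16.6%) and 4189 lower (17.4%) in KO low EF hearts, with 481 at least 2-fold higher and 288 at least 2-fold lower. With arrays scaled to a common median instead of quantile-normalized, the split was 4375 higher and 2226 lower, and the median of all probes moved from -0.01 to 0.05. Without WT replicates 8 to 11, 3559 probes were higher and 3740 lower. Per gene, on the brightest tested probe, 20.3% of 12999 genes were called higher and 18.5% lower, in 15.7% the groups did not overlap, and the median difference was 0.00. The counts of the gene lists below are to be read against these shares. Of the 238 named genes called, 117 had further tested probes, and in 36 of these at least 1 probe (42 in all, 37 of them with a mean under 8) was not called in the same direction. The 5 brighter ones belong to Sparc (0.67 ± 0.54), Itga9 (0.63 ± 0.51), Serpinh1, Ifitm1 and Ryr2 (-0.27 ± 0.14). For 57 of the 238 the difference was over 1.5 times that in the authors' normalized values (at most 3.20 times, for Nrg1), with 4 of them, Krt18, Serpinb1c, Kcnk1 and Nrg1, having a group mean below the array median. Within the 3 chips on which both groups were run, the sign was uniform for 96.0% of called probes, against 54.6% of all tested probes. These differences reuse the arrays that gave the calls, so they are no independent check. WT replicate 6 and KO low EF replicate 4 are each the only heart of their group on their chip.

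Beyond the well-known markers, the genes named here that rose furthest encoded matrix-bound and secreted proteins, together with a few of stress and membrane function. Svep1, an extracellular adhesion protein that binds integrin alpha 9, measured 8.11 to 8.52 in WT hearts (median 8.32) and 10.18 to 10.63 in KO low EF hearts (median 10.42). All 6 knockout hearts lay above every wild-type heart, with a gap wider than the spread of either group. The rise was 2.12 ± 0.08 (4.33-fold, adjusted p = 6.4e-14). Its receptor chain Itga9 rose by 1.02 ± 0.09, on 1 of 2 tested probes. Col8a1, a network-forming collagen of vessel walls, rose 5.17-fold (2.37 ± 0.10), Col16a1, a collagen that attaches to fibril surfaces, 4.54-fold (2.18 ± 0.10), and Adamts2, which trims the ends of procollagens, 4.85-fold (2.28 ± 0.11). In each of these 3 genes the groups were apart, with WT hearts at no more than 10.24, 9.72 and 10.60 and KO low EF hearts at no less than 12.02, 11.34 and 12.29. Itgbl1, a secreted protein with integrin-like repeats, measured 8.79 to 9.62 in WT hearts (median 9.05) and 10.57 to 12.24 in KO low EF hearts (median 11.72), without overlap, and rose 5.54-fold (2.47 ± 0.17).

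Among membrane and signalling genes, Panx1, whose channels release ATP, measured 7.28 to 7.88 in WT hearts (median 7.75) and 9.35 to 9.95 in KO low EF hearts (median 9.74). The groups were apart, and the rise was 4.08-fold (2.03 ± 0.10, adjusted p = 4.89e-12). Ddah1, the enzyme that breaks down asymmetric dimethylarginine, an inhibitor of nitric oxide synthases, measured 8.25 to 8.76 in WT hearts (median 8.58) and 10.14 to 10.69 in KO low EF hearts (median 10.66). It rose 3.97-fold (1.99 ± 0.10), again without overlap. Rtn4, or Nogo, which shapes the tubules of the endoplasmic reticulum, rose 3.24-fold (1.69 ± 0.08), and Aspscr1, which holds vesicles of the insulin-regulated glucose transporter inside the cell, 2.48-fold (1.31 ± 0.07). Krt18, a keratin of simple epithelia, measured 6.33 to 7.04 in WT hearts (median 6.62) and 8.42 to 9.47 in KO low EF hearts (median 8.97). Its groups did not overlap, and its difference was 2.32 ± 0.14. Its WT level is below the array median, so no fold is given, and the difference ranged from 1.06 (the authors' normalized values) to 2.82 (a smaller normexp offset) over the alternatives. Serpinb1c, an intracellular serpin at most 6.93 in WT and thus near background there, differed by 2.31 ± 0.14, with 1.08 to 2.79 over the alternatives. Pdpn, or podoplanin, a membrane glycoprotein of lymphatic vessels and activated fibroblasts, rose 2.92-fold (1.55 ± 0.07).

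For 5 other secreted proteins the knockout hearts differed widely among themselves. Angptl7, an angiopoietin-like protein, measured 6.93 to 8.90 in WT hearts (median 8.03) and 8.35 to 11.99 in KO low EF hearts (median 10.46), so that the lowest knockout heart lay inside the wild-type range. Its rise was 2.31 ± 0.41 (adjusted p = 0.000119). Ccn5 (2.23 ± 0.45), a growth-inhibiting relative of connective tissue growth factor, Chil1 (2.18 ± 0.36), a chitinase-like protein of macrophages, Ecrg4 (2.15 ± 0.43), a secreted peptide precursor, and Comp (3.00 ± 0.42), a cartilage and tendon matrix protein, also overlapped between groups. Without WT replicates 8 to 11, Ecrg4 rose by 2.82 ± 0.31 and Comp by 3.50 ± 0.40. A brighter Comp probe (mean 9.93) rose by 4.41 ± 0.62 over all hearts. Without the same arrays Angptl7 rose by 2.61 ± 0.44, Ccn5 by 2.46 ± 0.50 and Chil1 by 2.48 ± 0.39.

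The furthest falls named here were of genes with varied roles, among them channels, kinases and mitochondrial proteins. Larger falls, to -2.86 in the lipase and thioesterase list and -2.62 in the glycogen and amylase list, are not named. Immp2l, a subunit of a peptidase of the inner mitochondrial membrane, measured 11.31 to 11.75 in WT hearts (median 11.49) and 9.24 to 9.52 in KO low EF hearts (median 9.44). Every knockout heart lay far below every wild-type heart, and the fall was 4.31-fold (-2.11 ± 0.07, adjusted p = 4.07e-14). Rbfox1, a regulator of splicing in muscle and brain, measured 12.07 to 12.42 in WT hearts (median 12.18) and 10.06 to 10.79 in KO low EF hearts (median 10.13), with KO low EF replicate 6 above the other 5. It fell 4.01-fold (-2.004 ± 0.09). Channel subunits fell with them: Kcnd2, which carries transient outward potassium current, by 1.90 ± 0.09, Kcnv2, a modifier of potassium channels, by 2.37 ± 0.13, and Kcnk1, a background potassium channel, by 1.65 ± 0.25 to a level below the array median. For Kcnd2 the WT values were 10.22 to 10.90 and the KO low EF values 8.41 to 8.93, without overlap.

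P2ry1, an ADP receptor, measured 10.93 to 11.26 in WT hearts (median 11.06) and 8.76 to 9.76 in KO low EF hearts (median 9.13), and fell 3.66-fold (-1.87 ± 0.11). Wnk2, a kinase of the family that controls chloride transport, fell 4.06-fold (-2.02 ± 0.14), Txlnb, a taxilin of striated muscle, 3.5-fold (-1.81 ± 0.19) on the reported probe, and Ctnna3, the alpha-T-catenin of intercalated discs, 2.77-fold (-1.47 ± 0.08). None of these 4 genes had overlapping groups. A brighter Txlnb probe (mean 12.87) fell by only 0.57 ± 0.09. In the authors' normalized values the difference for Ctnna3 was -0.64. Maob, a mitochondrial monoamine oxidase, fell 3.14-fold, and Ift81, a protein of intraflagellar transport, 3.06-fold. Smco1, Fam131a, Ano10, Dnajc28 and Magix, whose roles in heart are not well known, changed by -1.81 to -1.24, each without overlap. Lgals4, a galectin, fell 3.25-fold, and Klk1b26, a kallikrein, 3.77-fold, with differences of -1.01 and -0.98 in the authors' normalized values. Tbc1d10c, which restrains small GTPases, fell by 1.71 ± 0.14 on 1 probe, and its other tested probe measured -0.09 ± 0.09 (adjusted p = 0.487).

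A few large falls came from genes with a wide spread in WT hearts. Inmt, a methyltransferase of indole amines, measured 9.93 to 12.61 in WT hearts (median 11.37) and 7.81 to 10.20 in KO low EF hearts (median 9.46), with overlap, and fell by 2.14 ± 0.36. Cyp2b10 (-2.02 ± 0.47), a cytochrome P450 that responds to xenobiotics, ranged from 8.27 to 12.13 in WT hearts and overlapped too. Slc40a1, or ferroportin, which exports iron, measured 10.22 to 12.65 in WT hearts (median 11.45) and 8.92 to 10.05 in KO low EF hearts (median 9.45), so the groups came close without overlapping, and it fell by 1.80 ± 0.32, or -2.19 ± 0.28 as a difference without WT replicates 8 to 11. Amy1, a salivary-type amylase, measured 8.43 to 10.24 in WT and 7.08 to 7.63 in KO low EF hearts, and fell 4.08-fold. Its difference was -1.15 in the authors' normalized values.

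**Figure D2:**
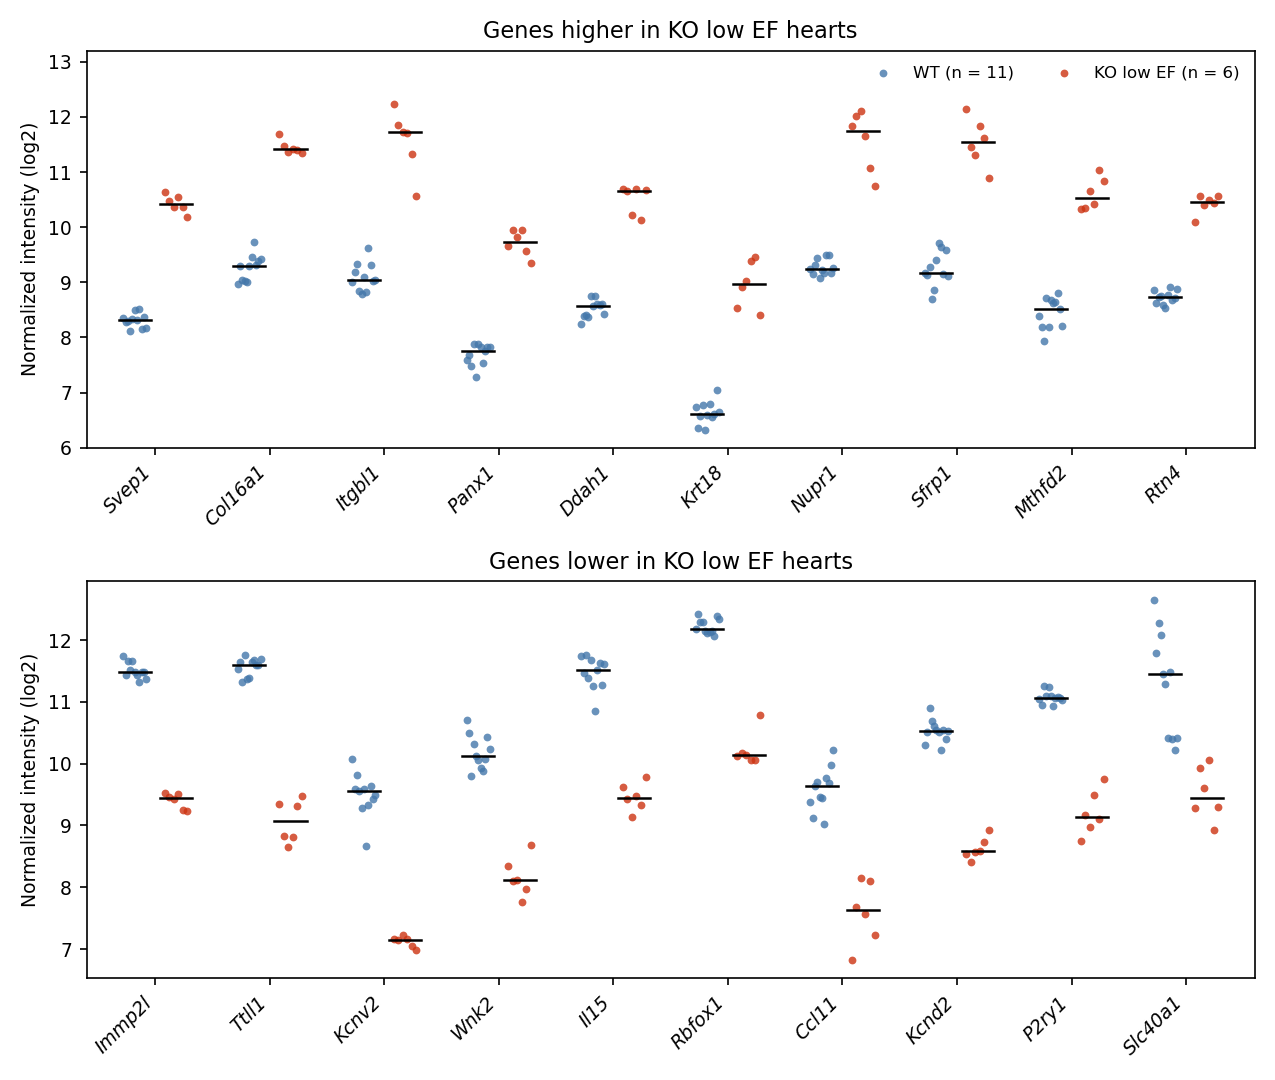
Normalized intensity (log2, vertical axis) of 10 genes higher and 10 genes lower in KO low EF hearts, with 1 point per heart (blue WT, n = 11; red KO low EF, n = 6) and a line at each group's median. The groups are apart for all 20 genes, with Slc40a1 the closest.

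Another list holds genes of amino acid and one-carbon metabolism that are known to respond to the transcription factor ATF4. Of its 25 measured members 14 rose and 4 fell, with a median of 0.37. Without WT replicates 8 to 11 the median was 0.46, with 12 higher and 3 lower. Ddr2, a collagen receptor that is also counted here, is no known part of that response. Nupr1, a stress-induced chromatin protein, measured 9.08 to 9.49 in WT hearts (median 9.24) and 10.74 to 12.11 in KO low EF hearts (median 11.74) and rose 4.91-fold (2.30 ± 0.15). Mthfd2, the mitochondrial enzyme that makes formyl-folate units, measured 7.93 to 8.80 in WT hearts (median 8.51) and 10.33 to 11.04 in KO low EF hearts (median 10.54) and rose 4.48-fold (2.16 ± 0.13, adjusted p = 7.64e-11). Neither gene overlapped between groups. Asns, asparagine synthetase, rose 2.5-fold (1.32 ± 0.12), and Slc7a5, a transporter of large neutral amino acids, 2.14-fold (1.10 ± 0.11). Against them Shmt2, which feeds the same mitochondrial folate pathway from serine, fell by 0.52 ± 0.07, and Vldlr, a lipoprotein receptor, by 0.77 ± 0.10 on the reported probe, with its 4 other tested probes also called lower.

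Since several members rose, the 250 bases before their starts were searched for the C/EBP-ATF response element, the site through which ATF4 acts, written as TGATGNAA on either strand. The list was made largely of genes known to respond to ATF4. A raised share of the element is therefore built in and is no result about these hearts. Of 18 members with a single start in the RefSeq promoter table (GRCm38.p6), 5 hold the letters, against 2.17% of 8261 tested genes. Their windows are shown with the match in capitals, in the direction of the gene:
Nupr1: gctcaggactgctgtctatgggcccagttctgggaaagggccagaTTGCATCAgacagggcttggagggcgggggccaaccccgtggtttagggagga
Asns: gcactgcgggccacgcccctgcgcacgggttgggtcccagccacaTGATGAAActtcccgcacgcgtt
Chac1: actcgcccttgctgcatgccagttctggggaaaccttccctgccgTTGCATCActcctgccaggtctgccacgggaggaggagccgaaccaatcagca
Atf3: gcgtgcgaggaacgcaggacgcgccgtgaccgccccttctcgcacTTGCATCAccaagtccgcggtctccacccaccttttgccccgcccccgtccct
Fgf21: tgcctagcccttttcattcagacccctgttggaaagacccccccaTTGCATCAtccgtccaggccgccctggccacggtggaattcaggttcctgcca

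The windows lie at chr7:126625528-126625625 (minus strand, Nupr1), chr6:7693210-7693277 (minus, Asns), chr2:119351004-119351101 (plus, Chac1), chr1:191183391-191183488 (minus, Atf3) and chr7:45615577-45615674 (minus, Fgf21). The capitals are the reverse complement of the element in all but Asns. Nupr1 and Asns rose, as given above. Chac1, which cleaves glutathione, rose by 0.47 ± 0.18 (adjusted p = 0.0492) and passed in 10 of 31 tested alternatives, with adjusted p from 0.0147 to 0.170. Atf3, a stress-induced transcription factor (0.35 ± 0.36, adjusted p = 0.517), and Fgf21, a hormone of metabolic stress (0.12 ± 0.09, adjusted p = 0.352), did not pass. Members without the letters in this window, such as Mthfd2, Trib3 (0.51 ± 0.10) and Aldh18a1 (0.68 ± 0.10), rose as well. A match is a description of the sequence only. In all, 12 motifs were searched on both strands in this list, the coenzyme Q list and the actin cytoskeleton list, and TGATGNAA is in 0 of 16 and 0 of 26 promoters of the others. Among the rest, the C/EBP-ATF composite ATTGCATCA was in 0.121% of all promoters and the basic-zipper site TGACGTCA in 2.51%. The nuclear receptor core AAGGTCA was in 2.74%, its extended form TCAAGGTCA, which overlaps it, in 0.218% and the related TGACCTTT in 0.823%. The E-box CACGTG was in 8.29% and the TEAD site GGAATG in 10.8%. The serum response element was in 0.0484%. The ETS-type sites GGAAGTG and ACTTCCGG were in 10.8% and 5.48%, and the PAR-bZIP site TTATGTAA was in 0.569%. Counts follow in the order of these lists (18, 16 and 26 promoters). CACGTG was in 3, 2 and 2, GGAAGTG in 1, 2 and 6, and ACTTCCGG in 0, 1 and 2. AAGGTCA was in 3 and TTATGTAA in 1 of the coenzyme Q promoters only. GGAATG was in 7 and TGACGTCA in 1 of the actin promoters only, and ATTGCATCA in 2 of the ATF4 list only. TGACCTTT, TCAAGGTCA and the serum response element were in none. These shares were not tested. In Nupr1 and Fgf21 the base before the capitals extends the match to the C/EBP-ATF composite ATTGCATCA.

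Most genes of the actin cytoskeleton outside the sarcomere rose. Of 37 measured genes of the non-muscle actin cytoskeleton 32 rose and none fell (median 0.59, and 0.53 to 0.60 within chips). In 20 of them the groups did not overlap. Actn1, the non-muscle alpha-actinin that crosslinks actin, measured 10.57 to 11.02 in WT hearts (median 10.69) and 11.71 to 12.36 in KO low EF hearts (median 12.07), and rose 2.49-fold (1.32 ± 0.10). Zyx, or zyxin, a focal adhesion protein, rose 2.09-fold (1.06 ± 0.09), Capg, which caps actin filaments, 2.53-fold, Myh10, a non-muscle myosin, 2.01-fold, Csrp2, a LIM protein, 2.13-fold, and Tmsb10, which binds actin monomers, 1.88-fold. Annexins and S100 proteins, which bind calcium and membranes, rose in 12 of 18, with a median of 0.72. S100a11 rose by 1.35 ± 0.08, Anxa2 by 1.37 ± 0.11, Anxa1 by 1.25 ± 0.12 and Anxa5 by 0.85 ± 0.08, all without overlap. Anxa11 alone of this list fell, by 0.44 ± 0.08, and its other tested probe was lower too.

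Tubulins divided. Of 35 measured tubulins and tubulin-modifying enzymes 11 rose and 6 fell. Tubb2b, a beta-tubulin of developing neurons, measured 9.02 to 10.51 in WT hearts (median 9.88) and 11.05 to 11.99 in KO low EF hearts (median 11.55). The groups were apart, and the rise was 3.44-fold (1.78 ± 0.21), with 4 further probes called higher. The alpha-tubulins Tuba1a (1.11 ± 0.12) and Tuba1b (1.01 ± 0.09) rose, whereas Tuba4a, the alpha-tubulin that carries no encoded terminal tyrosine, fell by 0.46 ± 0.11 with overlap and was not called with median scaling (-0.34 ± 0.14, adjusted p = 0.0764). Of the microtubule-associated genes, Map1b was higher (1.31 ± 0.13) and Map4 lower (-0.58 ± 0.11), each with 1 further probe called the same way and 2 dim probes not called (0.04 and -0.02 for Map1b, 0.11 and 0.08 for Map4). The enzyme subunit Ttll1, which adds glutamate chains to tubulin, measured 11.32 to 11.76 in WT hearts (median 11.59) and 8.66 to 9.48 in KO low EF hearts (median 9.07) and fell 5.62-fold (-2.49 ± 0.11). Another Ttll1 probe fell by 2.28 ± 0.11 and a dim one measured 0.05 ± 0.07. Its relative Ttll12 rose by 0.72 ± 0.09. Under median scaling 3 members of the tubulin list fell instead of 6.

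Matrix remodelling extended past the collagens. Small leucine-rich proteoglycans and matricellular proteins, which organize fibrils and signal to cells, rose in 23 of 32, and none fell (median 0.88). Bgn, or biglycan, measured 13.13 to 13.69 in WT hearts (median 13.42) and 14.92 to 15.68 in KO low EF hearts (median 15.38), without overlap although near the top of the scale, and rose 3.74-fold (1.90 ± 0.11). Sparc (1.49 ± 0.11), Fbln2 (1.44 ± 0.10), Mgp (1.38 ± 0.10), an inhibitor of calcification, and Thbs3 (1.16 ± 0.09) rose too. Tnc, or tenascin C, ranged from 7.66 to 10.45 in KO low EF hearts, against 6.46 to 7.12 in WT. Of 39 matrix proteases of the ADAM, ADAMTS and metalloproteinase families 18 rose and 2 fell. Adamtsl2, a microfibril-binding relative without protease activity, rose 4.05-fold (2.02 ± 0.15), the membrane-bound metalloproteinase Mmp23 3.6-fold (1.85 ± 0.10), Adamts12 2.55-fold and Adam9 1.98-fold. In the authors' normalized values Adamtsl2 rose by 1.16 and Adamts12 by 0.72.

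Protease inhibitors rose beside the proteases. Serpins and related inhibitors rose in 11 of 20 and fell in 1. Serpinf1, the antiangiogenic factor PEDF, rose 4.32-fold (2.11 ± 0.15) on its bright probe, with its dim probe at -0.11 ± 0.08. Serpine2, a thrombin inhibitor, rose by 1.22 ± 0.09 and Serping1, the inhibitor of complement C1, by 1.27 ± 0.12. Of 32 genes of hyaluronan and proteoglycan synthesis 16 rose and 2 fell. Sulf1, which removes sulphate from heparan chains outside the cell, rose 3.03-fold (1.60 ± 0.10), Vcan, or versican, 2.78-fold, and Cd44, the hyaluronan receptor, 2.68-fold. Vcan rose from a level near background, and its rise was 0.66 in the authors' normalized values.

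Adhesion receptors and folding enzymes followed. Integrins rose in 10 and fell in 2 of 24. The fibronectin receptor chain Itga5 rose by 1.01 ± 0.11, the collagen receptor chain Itga11 by 1.19 ± 0.15 and the vitronectin receptor chain Itgb5 by 0.98 ± 0.11, each without overlap. Genes of the endoplasmic reticulum rose in 15 and fell in 2 of 29. Those with the smallest p serve the secretory route or collagen folding, namely Kdelr3 (1.34 ± 0.12), which returns chaperones from the Golgi, Ppib (0.75 ± 0.07), P4hb (1.04 ± 0.13) and Serpinh1 (0.72 ± 0.11), the collagen chaperone, whose other tested probe (mean 9.76) measured 0.22 ± 0.14 (adjusted p = 0.272). Herpud1, a gene of the stress-induced degradation pathway, measured 14.06 to 14.83 in WT hearts (median 14.34) and 13.20 to 13.70 in KO low EF hearts (median 13.67), without overlap, and fell by 0.80 ± 0.11.

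**Figure D3:**
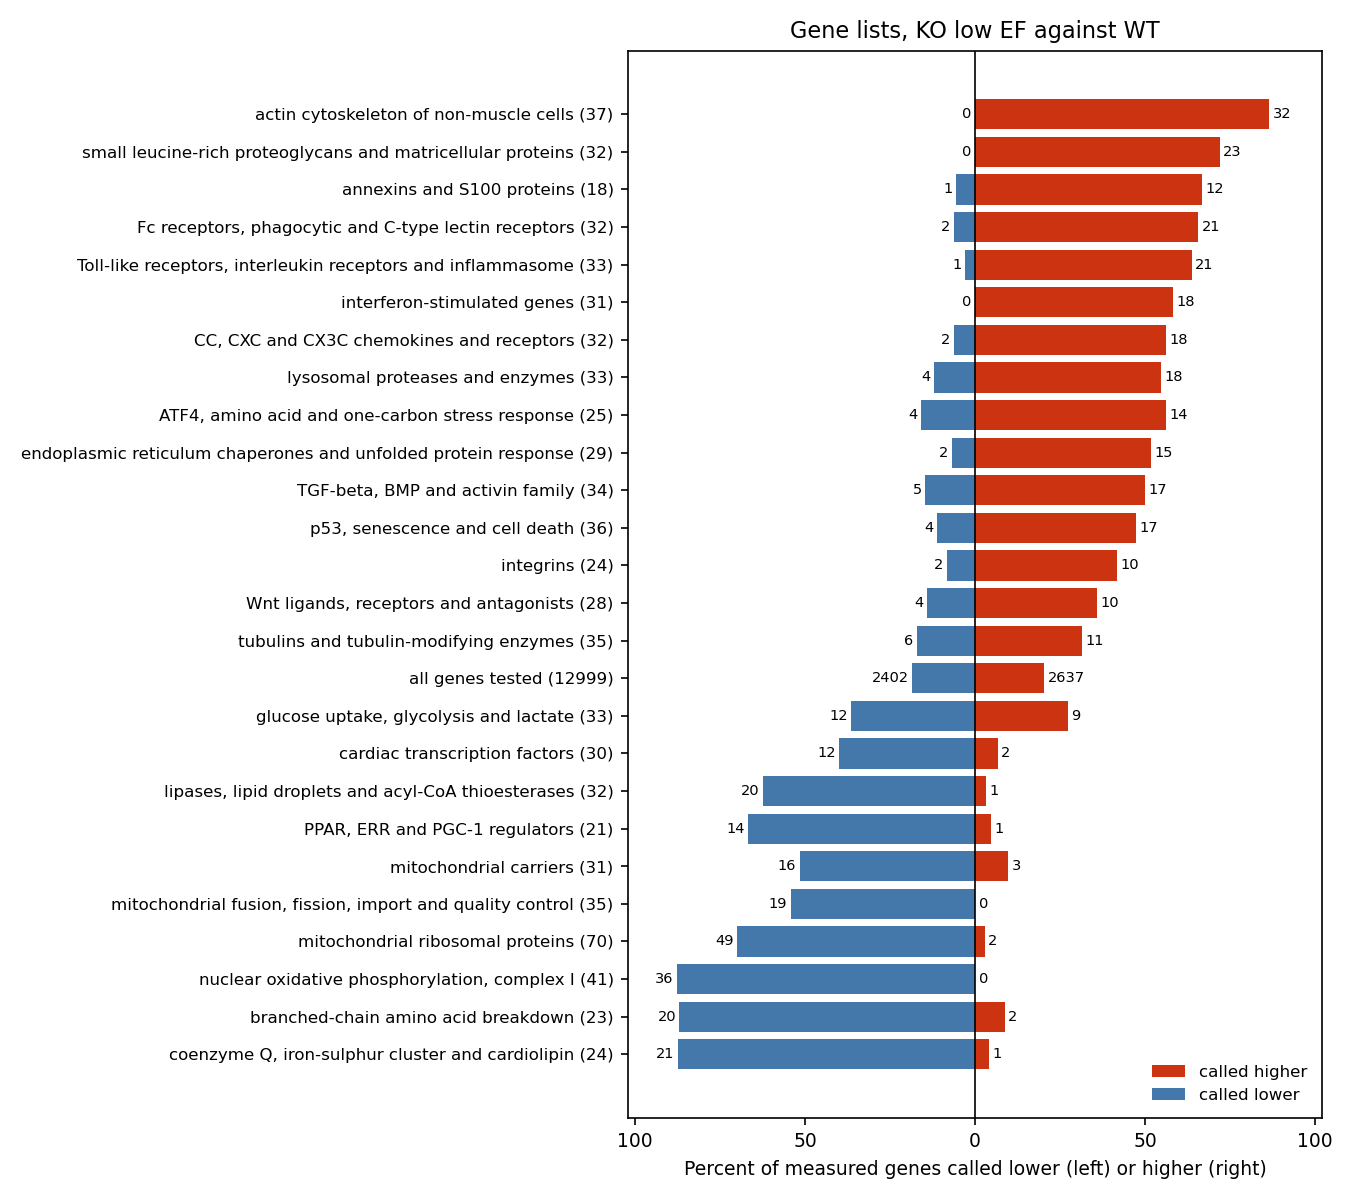
Percent of the measured genes of 25 lists called higher (red, to the right) or lower (blue, to the left) in KO low EF hearts, with the number of genes at each bar, the number measured in parentheses, and all 12999 genes tested for comparison. The lists were picked for display from 57 that are not cell type markers. Among those shown, most cytoskeletal, matrix and immune lists extend to the right and mitochondrial lists to the left. Others, such as NAD metabolism (5 higher and 8 lower of 18), are left out.

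Among secreted signals, 3 secreted frizzled-related proteins, which restrain Wnt signalling, rose. Sfrp1, which binds Wnt ligands outside the cell, measured 8.69 to 9.72 in WT hearts (median 9.17) and 10.89 to 12.14 in KO low EF hearts (median 11.54) and rose 4.9-fold (2.29 ± 0.16). Its relatives Sfrp2 (1.87 ± 0.17) and Frzb (1.49 ± 0.15) rose too, all 3 without overlap. Dkk3, of the Dickkopf family and also an atrial gene, overlapped between groups, at 7.20 to 11.49 in WT and 10.50 to 12.07 in KO low EF hearts. It rose by 2.11 ± 0.53, or by 3.07 ± 0.25 without WT replicates 8 to 11. Of the receptors, Fzd2 rose by 0.88 ± 0.15 and Fzd5 fell by 0.52 ± 0.08. The whole Wnt list had 10 higher and 4 lower of 28, with a median of 0.02.

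The TGF-beta family, which drives matrix production, had 17 higher and 5 lower of 34 (median 0.28). Tgfb2 measured 8.56 to 9.07 in WT hearts (median 8.83) and 10.30 to 11.41 in KO low EF hearts (median 10.79), without overlap, and rose 4.07-fold (2.02 ± 0.15). Tgfb3 rose by 1.37 ± 0.09, Ltbp3, which tethers latent TGF-beta, by 1.26 ± 0.10, and Bmp1, a procollagen C-proteinase, by 1.13 ± 0.08. Fstl1, a secreted follistatin-like glycoprotein, rose 4.69-fold (2.23 ± 0.18). Insulin-like growth factor genes rose in 9 and fell in 3 of 22. Igf1 rose by 1.25 ± 0.11, the binding proteins Igfbp6 by 1.63 ± 0.16 and Igfbp7 by 1.29 ± 0.08, and the RNA-binding protein Igf2bp2 by 1.43 ± 0.14. Grb14, an inhibitor of insulin receptor signalling, fell by 1.08 ± 0.11.

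The growth factor list had 11 higher and 8 lower of 40. Hbegf, a membrane-shed EGF receptor ligand, measured 9.22 to 10.23 in WT hearts (median 9.50) and 10.36 to 11.54 in KO low EF hearts (median 10.98), without overlap, and rose 2.59-fold; its dim probe measured -0.07 ± 0.10. Egfr (0.74 ± 0.09) and Nrg1 (0.70 ± 0.11), the ligand of the ErbB receptors of heart muscle, rose from low levels, and the other tested Nrg1 probe measured -0.03 ± 0.11 (adjusted p = 0.892). Angpt1, which stabilizes vessels, fell by 1.20 ± 0.15, Fgf9 by 0.70 ± 0.09 and Vegfb by 0.41 ± 0.06.

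Of 14 renin-angiotensin and mineralocorticoid genes, 2 rose and 6 fell. Ace, which makes angiotensin II, measured 9.37 to 9.79 in WT hearts (median 9.55) and 10.84 to 11.84 in KO low EF hearts (median 11.49). The groups were far apart, and the rise was 3.52-fold (1.82 ± 0.12, adjusted p = 2.88e-10). Agtr1a, the receptor for that peptide, measured 10.34 to 11.60 in WT hearts (median 11.01) and 9.69 to 10.19 in KO low EF hearts (median 10.07) and fell by 1.02 ± 0.13, without overlap. Agt, the precursor, fell by 0.67 ± 0.14 with overlap, and Mme, or neprilysin, which degrades natriuretic peptides and angiotensins, by 1.00 ± 0.10. Npr3, the clearance receptor of natriuretic peptides, rose by 0.87 ± 0.11, and its 4 other tested probes were called higher too, at 0.31 to 0.83.

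In adrenergic and cyclic AMP signalling 8 genes were higher and 10 lower of 34. Grk5, a kinase that desensitizes receptors, rose by 1.08 ± 0.12 and Arrb2, or beta-arrestin 2, by 0.69 ± 0.08. Adra1a, an alpha-1 adrenergic receptor, measured 7.65 to 8.58 in WT hearts (median 8.14) and 6.98 to 7.16 in KO low EF hearts (median 7.03) and fell by 1.04 ± 0.10. The adenylyl cyclases differed, with Adcy7 higher (0.85 ± 0.10) and Adcy9 lower (-0.61 ± 0.07). Akap1, which anchors protein kinase A at mitochondria, fell by 0.73 ± 0.08. Of the phosphodiesterases that degrade cyclic nucleotides, Pde1a rose by 1.05 ± 0.12 and Pde4a fell by 0.99 ± 0.10.

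The prostanoid genes around EP4 had 6 higher and 4 lower of 23, close to the share over all genes. Ptgis, prostacyclin synthase, measured 10.42 to 11.10 in WT hearts (median 10.81) and 12.22 to 12.62 in KO low EF hearts (median 12.53). The groups were apart, and the rise was 3.22-fold (1.69 ± 0.10, adjusted p = 4.92e-11). Alox5ap, needed for leukotriene synthesis, rose by 0.93 ± 0.11, and Pla2g5, a secreted phospholipase, fell by 1.06 ± 0.12.

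Macrophage markers rose in all 20 measured genes of 23 listed, with a median of 1.15, and the summed intensity of the list was 26138 to 37575 in WT and 59627 to 77121 in KO low EF hearts. C1qb, a chain of complement C1q, measured 10.95 to 11.26 in WT hearts (median 11.04) and 12.42 to 12.51 in KO low EF hearts (median 12.45), an even level among the knockout hearts, and rose 2.61-fold (1.39 ± 0.06). In bulk tissue, a change in the number of cells of a type and a change in RNA per cell cannot be told apart. Fibroblast markers rose in 17 of 20 and fell in 1 (summed 61104 to 72804 in WT and 92305 to 135280 in KO low EF). Pi16, a marker of resting fibroblasts, rose 4.24-fold (2.08 ± 0.14). Endothelial markers did not move as a group, with 1 higher and 1 lower of 20 and a median of -0.03. Pecam1 measured -0.09 ± 0.08 (adjusted p = 0.419) and Cdh5 0.08 ± 0.07 (adjusted p = 0.439), whereas Vwf, stored by endothelium and platelets, rose by 0.84 ± 0.17 with overlap.

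Of the other cell types, none of 9 neutrophil, 5 B cell and 7 mast cell markers was called. The summed neutrophil intensity ran from 1155 to 2910 in WT and from 1126 to 5963 in KO low EF hearts. Of the 17 T and NK cell markers 10 were tested, and only Thy1, which fibroblasts also express, was called. Ms4a1 and Pax5 of B cells and Cd4 and Cd8a of T cells were not above the filter. Of 15 pericyte and smooth muscle markers 5 rose and 3 fell, with a summed intensity of 58382 to 78302 in WT and 91158 to 111084 in KO low EF hearts. Sums were also higher without overlap for Schwann cell (1 of 6 called) and mesothelial markers (3 of 7 called). The exocrine pancreas sum was lower without overlap (1 higher and 2 lower of 8). Most members of these last lists were not called. Of 17 cartilage and tendon markers on the array 10 were tested, of which 4 rose and 6 were not called (median 0.02). The share called, 40.0%, is near the 38.8% over all genes. Their summed intensity was 1748 to 4051 in WT and 6553 to 28000 in KO low EF hearts. Among those that rose were the transcription factors Sox9 (1.88 ± 0.20) and Scx (1.34 ± 0.14), both without overlap. Cardiomyocyte markers had 1 higher, 5 lower and 8 not called of 14, with a median of -0.04. Their summed intensity overlapped, at 620375 to 696653 in WT and 624899 to 660433 in KO low EF hearts. Of the lower ones, Tnni3, cardiac troponin I, fell by 0.59 ± 0.09 and Ryr2, the calcium release channel, by 0.50 ± 0.08. On this list 13 genes lie near the top of the scale.

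Most lists of immune genes beyond these markers had a majority of genes higher. Fc, phagocytic and C-type lectin receptors rose in 21 and fell in 2 of 32. Clec4n, or dectin-2, rose by 1.35 ± 0.10, Axl, a receptor for dying cells, by 1.12 ± 0.08, and Trem2, a lipid receptor of macrophages, by 1.47 ± 0.14. Toll-like and interleukin receptor genes rose in 21 of 33, among them Tlr2 (1.11 ± 0.11) and Cd14 (1.11 ± 0.16). Il15, a cytokine also made by muscle, was the only member that fell. It measured 10.85 to 11.76 in WT hearts (median 11.51) and 9.13 to 9.79 in KO low EF hearts (median 9.45), and fell 4.01-fold (-2.005 ± 0.12, adjusted p = 6.43e-11), with its 2 other tested probes also lower.

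Chemokines divided by ligand. Of 32 chemokine genes 18 rose and 2 fell. The monocyte attractants Ccl8 (1.90 ± 0.24) and Ccl12 (1.59 ± 0.22), the membrane-bound Cx3cl1 (1.06 ± 0.10) and Cxcl16 (0.84 ± 0.10), and Ccl21a of lymphatic vessels (0.80 ± 0.09) rose. Ccl11, or eotaxin, measured 9.03 to 10.21 in WT hearts (median 9.64) and 6.82 to 8.16 in KO low EF hearts (median 7.63), without overlap, and fell 3.99-fold (-1.995 ± 0.18).

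Interferon-stimulated genes rose in 18 of 31 and none fell, though in only 4 did the groups not overlap. Ifi27l2a rose 3.28-fold (1.71 ± 0.21), and Ifitm3, a membrane protein that blocks viral entry, by 0.70 ± 0.09. Ifitm1 rose by 0.74 ± 0.08 on its bright probe and fell by 0.48 ± 0.14 on another. Genes of antigen presentation had 9 higher and 1 lower of 26, and 15 higher without WT replicates 8 to 11. Over all hearts the share called, 38.5%, is near the 38.8% over all genes, and in 2 the groups did not overlap. Cd86, a co-stimulatory ligand, rose by 0.91 ± 0.11. Lysosomal genes rose in 18 and fell in 4 of 33. Ctsk, a collagen-degrading cathepsin, measured 8.50 to 9.05 in WT hearts (median 8.82) and 10.23 to 10.40 in KO low EF hearts (median 10.26) and rose 2.79-fold (1.48 ± 0.08), and Laptm5, Ctsz, Cd63 and Lgmn rose by 0.72 to 1.19.

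Among stress and growth-arrest genes, the p53 and cell death list had 17 higher and 4 lower of 36 (median 0.31). Phlda3, an inhibitor of the kinase Akt and a p53 target, measured 8.76 to 9.47 in WT hearts (median 9.04) and 10.75 to 11.20 in KO low EF hearts (median 10.85). The groups were apart, and the rise was 3.52-fold (1.82 ± 0.10). Gadd45g rose by 1.50 ± 0.14, the p53 target Zmat3 by 0.65 ± 0.06, the death effector Bax by 0.70 ± 0.07 and the survival gene Bcl2 by 0.99 ± 0.11. The small heat shock protein Hspb1 rose by 1.01 ± 0.13 and Hsp90aa1 by 0.75 ± 0.15 with overlap, whereas Hspd1, the mitochondrial chaperonin, fell by 0.51 ± 0.08.

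Some muscle ubiquitin ligases that mark atrophy of skeletal muscle were lower. Trim63, or MuRF1, measured 11.68 to 11.91 in WT hearts (median 11.78) and 10.96 to 11.25 in KO low EF hearts (median 11.11), without overlap, and fell by 0.69 ± 0.06. Fbxo32, or atrogin-1, fell by 0.61 ± 0.12 with overlap, Klhl38 by 0.88 ± 0.15 and Asb2 by 0.51 ± 0.08. The list of ubiquitin ligases and autophagy genes that holds them had 3 higher and 6 lower of 26, a share near that over all genes.

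Breakdown of branched-chain amino acids, which feeds their carbon into mitochondria, fell in 20 of 23 genes and rose in 2 (median -0.71, and -0.74 to -0.71 within chips). Bckdha, of the dehydrogenase that commits these amino acids to oxidation, measured 13.12 to 13.53 in WT hearts (median 13.29) and 12.18 to 12.55 in KO low EF hearts (median 12.29). No hearts overlapped, and the fall was 1.99-fold (-0.99 ± 0.07). Dbt of the same complex fell by 1.23 ± 0.09 on its bright probe, while its dim probes were not called. Further down the pathways Mccc2 fell by 1.19 ± 0.07, Ivd by 0.96 ± 0.08, Pccb by 0.83 ± 0.07 and Acat1 by 1.16 ± 0.10, all without overlap. Bcat1, the cytosolic transaminase, rose by 0.89 ± 0.12 from a dim level on 1 of 2 tested probes.

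Genes of coenzyme Q, iron-sulphur clusters and cardiolipin fell in 21 of 24 (median -0.44). Coq4 measured 8.53 to 9.08 in WT hearts (median 8.77) and 7.67 to 8.25 in KO low EF hearts (median 8.03) and fell by 0.79 ± 0.08. Coq10a (-0.74 ± 0.09), Coq7 (-0.62 ± 0.07) and Coq9 (-0.72 ± 0.09) of the same pathway and Nfs1 (-0.52 ± 0.07), the cysteine desulphurase that supplies sulphur to the clusters, were lower too. Nuclear genes of complex I, which takes electrons from NADH, fell in 36 of 41 with none higher (median -0.43), though 26 of them lie near the top of the scale. Ndufb7 fell by 0.55 ± 0.06 and the assembly factor Ecsit by 0.64 ± 0.07.

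Mitochondrial ribosomal proteins, which translate the genes of mitochondrial DNA, fell in 49 of 70 and rose in 2. The falls were small, with a median of -0.32, and under median scaling 27 were called lower. Mrps35 measured 11.83 to 12.34 in WT hearts (median 12.04) and 10.94 to 11.19 in KO low EF hearts (median 11.03), without overlap, and fell by 1.00 ± 0.07. Mrpl18 (-0.73 ± 0.07) and Mrpl28 (-0.70 ± 0.08) fell as well. Of 35 genes of mitochondrial dynamics, import and quality control 19 fell and none rose, among them the protease subunit Clpx (-0.84 ± 0.08), the stress-activated peptidase Oma1 (-0.66 ± 0.07) and Pink1 (-0.95 ± 0.15), which marks damaged mitochondria. Carriers of the inner membrane fell in 16 and rose in 3 of 31. Slc25a42, which imports coenzyme A, fell by 1.55 ± 0.13 on its bright probe, Slc25a34 by 1.27 ± 0.09 and Mpc2 of the pyruvate carrier by 0.95 ± 0.09.

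Of 21 genes of the PPAR, ERR and PGC-1 group 14 fell and 1 rose (median -0.35). Ppargc1a, the coactivator PGC-1 alpha, measured 10.57 to 11.18 in WT hearts (median 10.89) and 9.87 to 10.08 in KO low EF hearts (median 10.05), without overlap, and fell by 0.88 ± 0.09. Rxrg, a partner of PPAR receptors, fell by 1.10 ± 0.09, Esrrg, an oestrogen-related receptor, by 0.86 ± 0.08, and Perm1, a muscle regulator downstream of both, by 0.68 ± 0.07. Lipases, lipid droplet proteins and acyl-CoA thioesterases fell in 20 of 32 and rose in 1. Plin5, which joins droplets to mitochondria, measured 12.04 to 12.32 in WT and 11.24 to 11.33 in KO low EF hearts, the narrowest ranges of any gene named here in the second group after C1qb. Acot2, a mitochondrial thioesterase, fell by 1.44 ± 0.11 on its bright probe and Dgat2, which makes triglyceride, by 1.20 ± 0.12. Nampt, of NAD synthesis, fell by 1.04 ± 0.14.

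For 5 pairs of isoforms, with 5 of their 10 members picked after their values were seen, the general form was higher and the muscle form lower. These pairs are shown as a description, since no list of such pairs was tested. Slc2a4, the insulin-regulated glucose transporter of muscle, measured 12.33 to 12.65 in WT hearts (median 12.51) and 11.26 to 11.83 in KO low EF hearts (median 11.61) and fell by 0.94 ± 0.08. Slc2a1, the general glucose transporter, measured 9.66 to 10.18 in WT hearts (median 9.90) and 10.56 to 11.11 in KO low EF hearts (median 10.84) and rose by 0.94 ± 0.09. Neither overlapped between groups. The platelet-type phosphofructokinase Pfkp rose by 1.38 ± 0.12 and the muscle type Pfkm fell by 0.60 ± 0.08. The phosphoglycerate mutase Pgam1 rose by 0.71 ± 0.08 and its muscle relative Pgam2 fell by 0.57 ± 0.07. The enolases Eno1 (0.62 ± 0.13) and Eno2 (1.04 ± 0.21) rose and the muscle enolase Eno3 (-0.68 ± 0.10) fell. In the creatine system Ckb, the brain-type kinase, rose by 0.70 ± 0.09, and Ckm, the muscle type, fell by 0.73 ± 0.10. Ckmt1 rose by 0.88 ± 0.13 from a dim level and Ak1, adenylate kinase, fell by 0.62 ± 0.08. The whole glucose list had 9 higher and 12 lower of 33 and a median of -0.01. Pfkm, Pgam2, Eno3 and Ckm lie near the top of the scale, so their falls may be compressed, and macrophages and fibroblasts, whose markers rose, also express general isoforms; their part in these values was not tested.

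**Figure D4:**
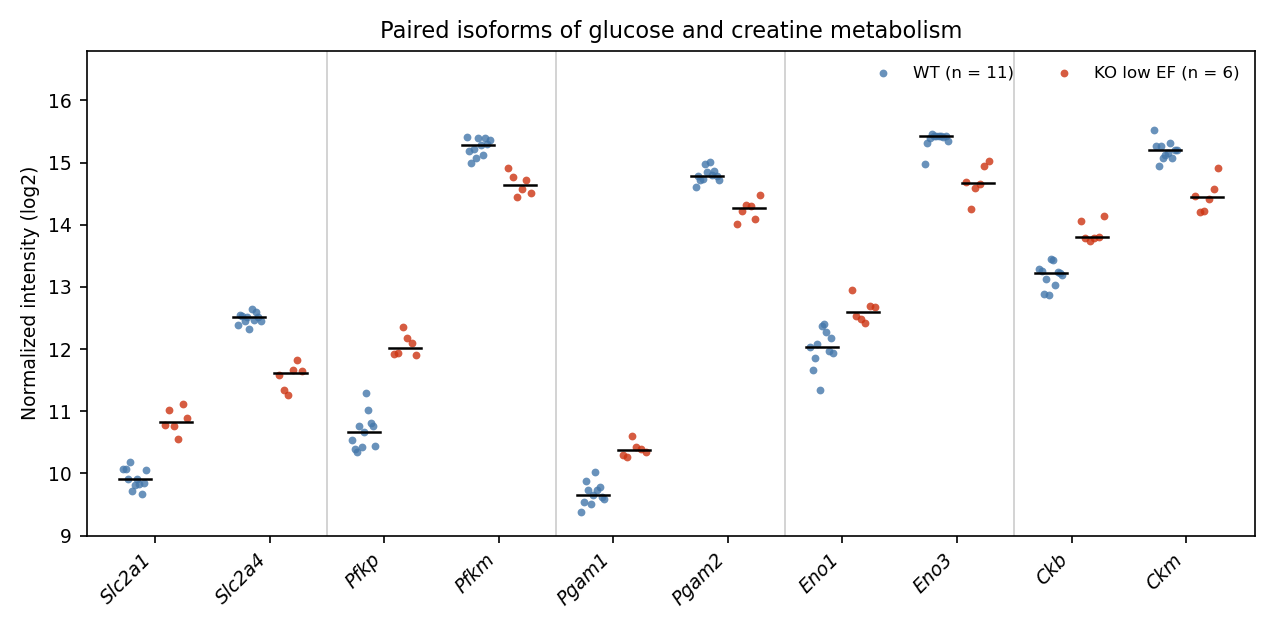
Normalized intensity (log2, vertical axis) of 5 pairs of isoforms, with 1 point per heart (blue WT, n = 11; red KO low EF, n = 6) and a line at each group's median. In each pair the first gene is higher and the second, the muscle isoform, lower in KO low EF hearts, and Eno3 is the one gene of the 10 whose groups overlap.

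Single enzymes of pyruvate, lactate and glycogen metabolism changed. Pdp2, the phosphatase that switches pyruvate dehydrogenase on, measured 12.10 to 13.29 in WT hearts (median 12.32) and 10.48 to 11.00 in KO low EF hearts (median 10.82), without overlap, and fell 3.14-fold (-1.65 ± 0.15). Ldhd, which oxidizes D-lactate, fell by 1.16 ± 0.09. Of 18 glycogen and amylase genes 9 fell and 2 rose. Phkg1, the catalytic subunit of muscle phosphorylase kinase, measured 8.29 to 9.21 in WT hearts (median 8.75) and 6.64 to 7.50 in KO low EF hearts (median 7.13) and fell 3.06-fold, Pygm, muscle glycogen phosphorylase, fell by 0.58 ± 0.08, and Gyg, the primer of glycogen synthesis, rose by 0.60 ± 0.10. In the authors' normalized values the difference for Phkg1 was -0.75. Of 7 measured genes of ketone metabolism 4 fell and 1 rose. Oxct1, which activates ketone bodies for oxidation, fell by 0.38 ± 0.06, and the cytosolic dehydrogenase Bdh2 rose by 1.22 ± 0.10.

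Iron and redox genes changed in both directions. Of 29 iron and haem genes 11 fell and 6 rose, with 7 lower under median scaling. Beside ferroportin, the hepcidin regulator Hjv fell by 1.19 ± 0.12, and the haem enzymes Fech by 0.77 ± 0.10 and Alad by 0.93 ± 0.14. The secreted iron proteins transferrin (Trf, 1.17 ± 0.17) and ceruloplasmin (Cp, 0.84 ± 0.12) rose. Of 44 antioxidant genes 12 rose and 17 fell. Nox4, a hydrogen peroxide-producing oxidase, measured 6.55 to 7.32 in WT hearts (median 6.92) and 7.90 to 9.64 in KO low EF hearts (median 9.13). Its groups did not overlap, and it rose 3.9-fold (1.96 ± 0.21). Its WT level is near background, and its rise was 0.96 in the authors' normalized values. The glutathione peroxidases Gpx1 (0.95 ± 0.07) and Gpx3 (1.37 ± 0.14) rose, and the mitochondrial glutathione transferase Gstk1 fell by 1.49 ± 0.09, with WT hearts at 13.02 or more and KO low EF hearts at 12.12 or less.

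Of 30 cardiac transcription factors 12 fell and 2 rose, and 7 fell under median scaling. Hopx, a small homeodomain protein of heart muscle, measured 14.05 to 14.53 in WT hearts (median 14.27) and 12.45 to 13.34 in KO low EF hearts (median 13.08), without overlap, and fell 2.41-fold (-1.27 ± 0.11). Mitf (-1.002 ± 0.09), Prox1 (-0.83 ± 0.07) and Smyd1 (-0.76 ± 0.09), a muscle methyltransferase, fell too. Prox1 is also a lymphatic marker, and the 4 other lymphatic markers called, Pdpn and Ccl21a among them, were higher. Runx1, a factor of blood development, rose by 0.79 ± 0.11 and the immediate early gene Egr2 by 1.50 ± 0.23. Their rises were 0.27 and 0.82 in the authors' normalized values. Of 19 clock genes 4 rose and 6 fell. Arntl (Bmal1) rose by 0.57 ± 0.19 and its targets Dbp (-0.73 ± 0.20) and Nr1d2 (-0.76 ± 0.12) fell, all with overlap. Arntl and Dbp were not called with the chip as a block (adjusted p = 0.233 and 0.058), and no source used here gives the time of day at which hearts were taken.

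Myl4, the atrial and fetal light chain, shows what the atrial arrays do to a single gene. It measured -0.76 ± 0.89 (adjusted p = 0.578) over all hearts. Without WT replicates 8 to 11 it rose by 0.98 ± 0.12 (adjusted p = 1.05e-05), since the KO low EF hearts, at 9.14 to 9.34, lay above the other WT hearts, at 7.59 to 8.55.

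The knockout hearts with high EF allow a further comparison, between the knockout groups, fitted over 23 arrays without the KO high EF heart labelled 11, whose array stands apart. Across all probes 4.29% of 25144 were called, and of the 8178 probes called against WT 13%. Of the 238 genes named here and called against WT, 112 lay farther from WT in the low EF than in the high EF hearts past the threshold, none lay nearer past it, and 126 did not pass. With all 24 arrays 80 passed. Since these genes were chosen on the low EF hearts, their distance from WT in that group is favoured, and the knockout groups were formed by EF.

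Genes that differed between the knockout groups came from each direction. Krt18 averaged 6.65 in WT, 7.79 in KO high EF and 8.99 in KO low EF hearts, and the difference low minus high was 1.20 ± 0.21 (adjusted p = 0.00238). Ddah1 averaged 8.56 in WT, 9.51 in KO high EF and 10.54 in KO low EF hearts (1.03 ± 0.15, adjusted p = 0.000655). Nupr1 (1.03 ± 0.16), Itgbl1 (1.06 ± 0.22), Ace (0.87 ± 0.14) and Svep1 (0.70 ± 0.11) were higher in low EF hearts. Ccl11 averaged 9.62 in WT, 8.98 in KO high EF and 7.62 in KO low EF hearts (-1.36 ± 0.24, adjusted p = 0.00238). P2ry1 (-0.90 ± 0.12), Rbfox1 (-0.85 ± 0.12), Il15 (-0.85 ± 0.14), Dnajc28 (-0.66 ± 0.09), Plin5 (-0.53 ± 0.07) and Slc2a4 (-0.53 ± 0.08) were lower in them. All 13 of these genes also passed with 24 arrays.

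Other genes that differed widely from WT did not pass between the knockout groups. Immp2l averaged 11.54 in WT, 9.61 in KO high EF and 9.43 in KO low EF hearts, a difference of -0.18 ± 0.08 (adjusted p = 0.297). Ctnna3 averaged 8.49 in WT, 7.12 in KO high EF and 7.01 in KO low EF hearts (-0.11 ± 0.10, adjusted p = 0.679). Among genes that rose, Mthfd2 (0.17 ± 0.18), Asns (0.17 ± 0.15), Tnc (0.09 ± 0.30), C1qb (0.26 ± 0.10) and Trem2 (0.22 ± 0.15) did not pass either. Ccl8 had the opposite sign, at -0.58 ± 0.28 (adjusted p = 0.31), and averaged 8.06 in WT, 10.54 in KO high EF and 9.96 in KO low EF hearts. A p that misses the threshold does not show that the groups are alike, and the standard errors give the size of difference that 6 and 6 hearts leave room for.

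**Figure D5:**
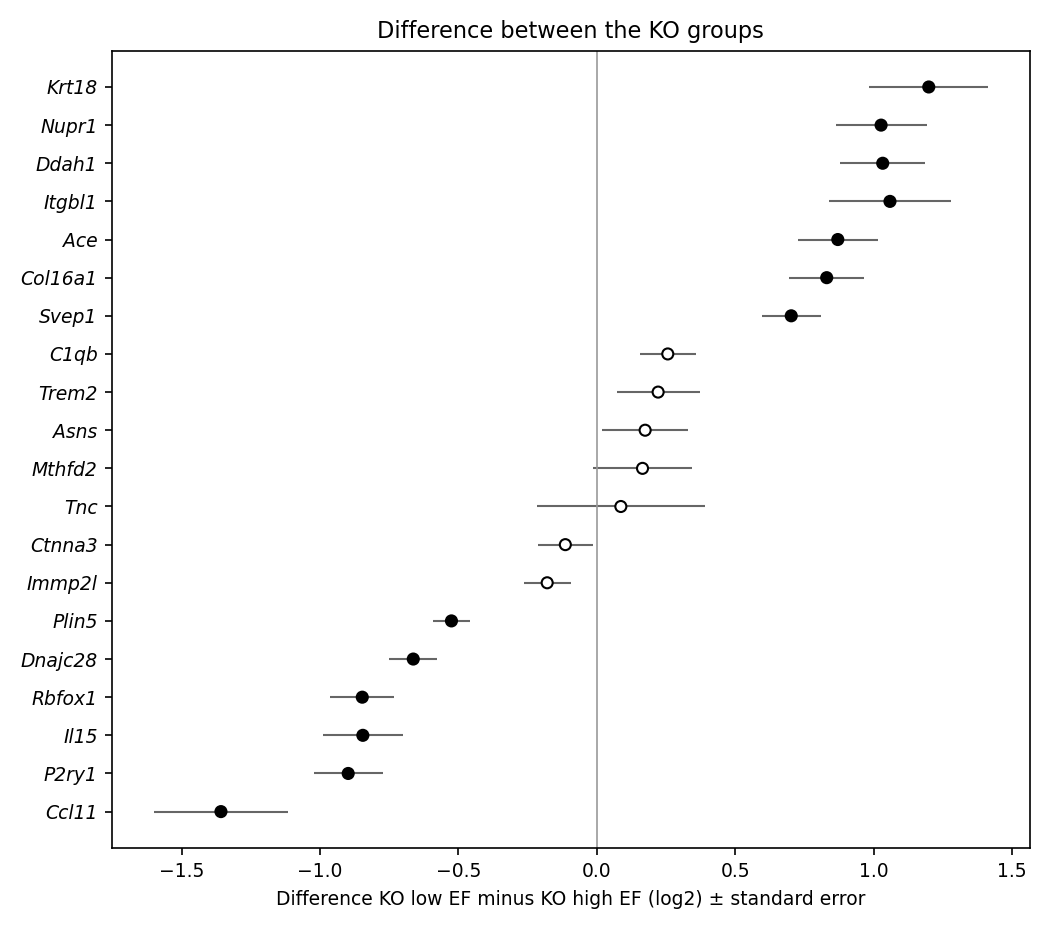
Difference KO low EF minus KO high EF (log2, horizontal axis) with its standard error for 20 genes that differ from WT in KO low EF hearts, fitted over 23 arrays. Filled points passed the threshold and open points did not; the 7 open points lie between -0.18 and 0.26.

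Of the genes named here, Tuba4a, Map4, Anxa11, Chac1, Vldlr, Bcat1, Pfkm, Pgam1, Pgam2, Eno1, Eno2, Eno3, Arntl, Pecam1, Cdh5, Atf3, Fgf21, Trib3, Aldh18a1 and the marker genes named as not tested fell outside the naming rule and were chosen after their values were seen. Within the 3 chips on which both groups were run, all 238 named genes that were called kept 1 sign. Since most were chosen for a small p or a large difference on the same arrays, this sign was favoured.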

How the data were processed

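RNA of 24 left ventricles was hybridised to 1-colour Illumina mouse arrays, 1 heart each, after DNase treatment and biotin labelling, per the labels' protocols. The authors deposited raw probe intensities (BeadStudio, with R 2.8.0 also named, per the submitters' processing notes) and, as an alternative used here, normalized values on a log2 scale. Their deposited summary table holds group means, group SDs (other unit) and p-values per probe, whose test is not stated, and was used only to match probes. Raw intensities were corrected by normexp (offset 50), taken to log2 and quantile-normalized over 17 arrays. Probes were kept if brighter than the array median in 6 or more of them (24097), and limma 3.58.1 in R 4.3.3 was fitted with Benjamini-Hochberg adjustment and a threshold of 0.05. In simulated data 197 of 200 changed probes were recovered, with 12 false calls among 24097 probes. In the hearts 8178 probes were called, and the share of false calls among these was not tested.

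Probe names came from the platform annotation; 8844 of 45281 probes have none. Lists use each gene's brightest kept probe, and other named genes the probe with the smallest p. Named were the 30 largest rises and 30 largest falls that exceeded the array median throughout the higher group, the 15 smallest p in each direction, up to 6 called members of each list described by smallest p, members of small lists, probes called in the opposite direction, and Ptger4. A few genes selected in this way are left unreported. The members and lists were chosen with earlier results of these data known. Each array is 1 mouse, and p-values measure the spread between these mice only. The number of arrays limits the precision. Chips were read from the prefix of the array labels. Alternatives changed the background correction, normalization, filter, chip, age, weights, arrays and replicates used; leaving out 4 WT arrays with bright atrial genes was added after seeing the data. Promoter sequences are RefSeq's (GRCm38.p6).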

Additional observations from a re-analysis of the deposited data

Results flagged for a closer look

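For 16 of the 244 named genes 1 of the 6 KO low EF hearts lay far from the other 5 (a gap to its neighbour above 0.625 of the whole range, which chance gives in about 1 of 20 groups). The values are normalized log2 intensities. In KO low EF replicate 6, which gave 7 of the 16, the level was lowest for Adam9 (10.50), Igfbp6 (9.70), Npr3 (9.04), Grk5 (10.20) and Pi16 (12.28), and highest for Rbfox1 (10.79) and Dgat2 (13.12). All 7 of these values lie on the side of the WT hearts. In replicate 1 Rtn4 (10.10) and Hspb1 (13.62) were lowest and Ivd (12.41) highest. In replicate 5 Herpud1 (13.20) was lowest and Asns (10.43) and Arntl (9.26) highest. In replicate 3 Agtr1a (9.69) was lowest and Cd44 (10.77) highest. In replicate 2 Fstl1 (12.04) was lowest.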

How the results depend on the processing

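Of the 238 named genes called, all kept their direction in the alternatives run, and calls were lost as follows. Chac1 passed in 10 of 31 tested alternatives. Tuba4a was lost with median scaling, Dbp with the chip block and the replicate block, Arntl with the chip block and without KO low EF replicate 5, and 15 genes with all 24 arrays, namely Actn1, Csrp2, Anxa11, Ltbp3, Cxcl16, Ifitm3, Chac1, Coq10a, Mrpl28, Mpc2, Clpx, Gstk1, Dbp, Arntl and Vwf. Leaving out 1 replicate at a time gave 7475 to 8548 called probes, 3639 to 4129 higher and 3835 to 4419 lower, with 463 to 500 at least 2-fold higher and 274 to 305 at least 2-fold lower. Median scaling called 2226 probes lower, against 4189, and 66.3% of its calls were higher against 48.8%. The authors' normalized values gave 251 probes at least 2-fold higher and 131 at least 2-fold lower, against 481 and 288. The causes were not tested. All 24 arrays called 6205 probes, and the chip block 6690.

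The replicate block called 7039 probes, 3472 higher and 3567 lower. The numbers do not pair the hearts: the correlations of deviations between same-numbered hearts ran from -0.01 to 0.18, and 0 of 6 hearts correlated best with their own number. Among uncalled genes 2 changed sign and were called. With the replicate block, to whose difference WT replicates 7 to 11, having no knockout partner, do not contribute, Myl7 measured 0.29 ± 0.10 (limma, adjusted p = 0.0429) and Myl4 1.03 ± 0.11. Myl4 measured 0.98 ± 0.12 without the 4 WT arrays with bright atrial genes. Of the probes tested, 50.7% have a mean under 8, near background, where differences are compressed, as they are near the top of the scale.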
